A study of Mus musculus with 42 samples.

Results

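Cdkn1a, Cdkn1b, Rb1, Rbl1, Rbl2 and Wee1 encode proteins that slow the cell cycle, and all 6 were followed in input and immunoprecipitated RNA of mouse embryonic stem cells. They were chosen by symbol, as mRNAs reported to be bound by TRIM71 or by the microRNAs of embryonic stem cells, together with close relatives. The choice was made with earlier results of these data known. Shares of all genes set beside counts of the 6 below are therefore background and no independent test. Each symbol had 1 row in both count tables, so they make up 6 of 18825 genes in experiment 1 and 6 of 19866 in experiment 2. All 6 passed the filter on low counts, as did 18772 and 19778 genes.

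Cdkn1a (p21, ENSMUSG00000023067) and Cdkn1b (p27, ENSMUSG00000003031) encode inhibitors of cyclin-dependent kinases. Rb1 (ENSMUSG00000022105), Rbl1 (p107, ENSMUSG00000027641) and Rbl2 (p130, ENSMUSG00000031666) encode the pocket proteins, which bind E2F transcription factors and hold back the genes of DNA replication. Wee1 (ENSMUSG00000031016) encodes a kinase that delays mitosis through an inhibitory phosphate on Cdk1. In embryonic stem cells the pocket proteins are largely kept inactive, G1 is short, and microRNAs of the miR-290 and miR-302 clusters are known to hold down Cdkn1a, Rbl2 and other brakes. These microRNAs act within Argonaute proteins such as Ago2, which recruit Tnrc6 (GW182) proteins and through them the machinery that silences an mRNA. TRIM71, also called LIN41, binds RNA and silences mRNAs in stem cells by contacting them itself, and Cdkn1a is among its reported targets.

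The mature microRNAs were not measured in these libraries. Their sequences are shown because Cdkn1a, Rbl2 and Wee1 are reported targets of the miR-290 family. The seed, bases 2 to 8, pairs with the target and is in capitals here. These 5 RefSeq entries (build GRCm38.p6), from the miR-290 and miR-302 clusters, share the seed AAGUGCU. No others among 1679 mature mouse microRNAs in the table do.
mmu-miR-291a-3p: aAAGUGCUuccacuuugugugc
mmu-miR-294-3p: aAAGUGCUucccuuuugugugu
mmu-miR-295-3p: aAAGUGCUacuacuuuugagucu
mmu-miR-302b-3p: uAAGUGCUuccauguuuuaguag
mmu-miR-302d-3p: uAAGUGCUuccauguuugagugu
The miR-17 family, which is reported to target Cdkn1a and Rbl2 in other cells, carries the same core shifted by 1 base. Its seed AAAGUGC is found in 7 mature microRNAs of the table, 2 of which are shown.
mmu-miR-17-5p: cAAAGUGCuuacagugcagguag
mmu-miR-106b-5p: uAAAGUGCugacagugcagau

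The cells were of the 129S6/SvEvTac background and all groups carried the reporter GFP_5xT71BS and a stably transfected FLAG-Cas9. The untagged control had no tag on Tnrc6a. The tagged cells expressed HA-AVI-Tnrc6a, the cells labelled Trim71KO were tagged and Trim71-/-, and the cells labelled Ago2KO, present in experiment 2 alone, were tagged and Ago2-/-. RNA was sequenced from the lysate (input) and from anti-HA beads (IP), with 3 libraries in each of 14 groups, 6 in experiment 1 and 8 in experiment 2. The labels say that cells were grown in triplicate dishes and name no clones. The p-values therefore measure the spread between dishes of each labelled line.

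Total counts per library were 12587257 to 23657840 in experiment 1 and 16296447 to 21026552 in experiment 2. Ago2 input RNA fell from 353 ± 34.9 to 162 ± 4.76 CPM (counts scaled to library size; SD, n = 3) in Ago2KO cells. Trim71 input RNA did not fall with its label, at 282 ± 3.18 CPM in Trim71KO against 241 ± 21.2 CPM in tagged cells of experiment 1, so the RNA level does not check it and "Trim71KO" stands throughout for the libraries so labelled. All 8 markers of naive embryonic stem cells were present, with summed input levels of 5747 to 5842 CPM in tagged and 6786 to 6934 in Trim71KO cells of experiment 1, and of 6326 to 6476 in tagged, 7549 to 7668 in Trim71KO and 7080 to 7134 in Ago2KO cells of experiment 2. Primed epiblast markers summed to 136 to 176 CPM in tagged and 172 to 181 in Trim71KO input of experiment 1 (3 of 5 in the table), and to 136 to 146 in tagged, 214 to 242 in Trim71KO and 141 to 146 in Ago2KO input of experiment 2 (4 of 5). In bulk RNA, fewer cells of a type and less RNA per cell cannot be told apart. The summed input level of 7 primitive endoderm markers was 57.8 to 71.6 CPM in tagged and 12.1 to 14.3 CPM in Trim71KO libraries of experiment 1, with Gata6 and Sox17 under 1 CPM in the latter. In experiment 2 the 6 markers in the table summed to 20.4 to 22.5 CPM in tagged, 7.61 to 9.72 in Trim71KO and 9.69 to 10.9 in Ago2KO libraries. Of 7 fibroblast markers, 2 were in the table of experiment 1, and their sum, mostly Thy1, was 22.7 to 24.6 CPM in tagged and 58.0 to 61.9 CPM in Trim71KO input, and in experiment 2 it was 34.0 to 35.9 CPM in tagged, 49.8 to 52.2 in Trim71KO and 29.8 to 34.9 in Ago2KO input. The part of these shifts in any result below was not tested.

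Before precipitation, the RNA of the 6 genes was of low to moderate abundance. Per kilobase of gene length, input levels of tagged cells in experiment 1 ran from Wee1 at 16.4 ± 0.27 CPM per kb, through Cdkn1b at 8.48 ± 1.09, Cdkn1a at 6.94 ± 0.73 and Rbl1 at 5.03 ± 0.87, down to Rb1 at 2.34 ± 0.03 and Rbl2 at 0.95 ± 0.17 (SD, n = 3). Of these neighbours, the libraries of Cdkn1a and Cdkn1b overlapped and the others did not. In experiment 2, where tagged input of Cdkn1a was at 18.1 ± 0.86 CPM per kb, the order was Wee1, Cdkn1a, Cdkn1b, Rbl1, Rb1 and Rbl2, with no overlap between neighbours in tagged cells. Rbl2 was thus the scarcest of the 6 transcripts per length in input of both experiments, and Wee1 the most abundant by the group means of every genotype. Libraries of Wee1 and Cdkn1a overlapped in untagged and Ago2KO input of experiment 2, and those of Cdkn1a and Cdkn1b overlapped in Trim71KO input of experiment 2, as did those of Cdkn1b and Rbl1 in Trim71KO input of experiment 1.

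**Figure D1:**
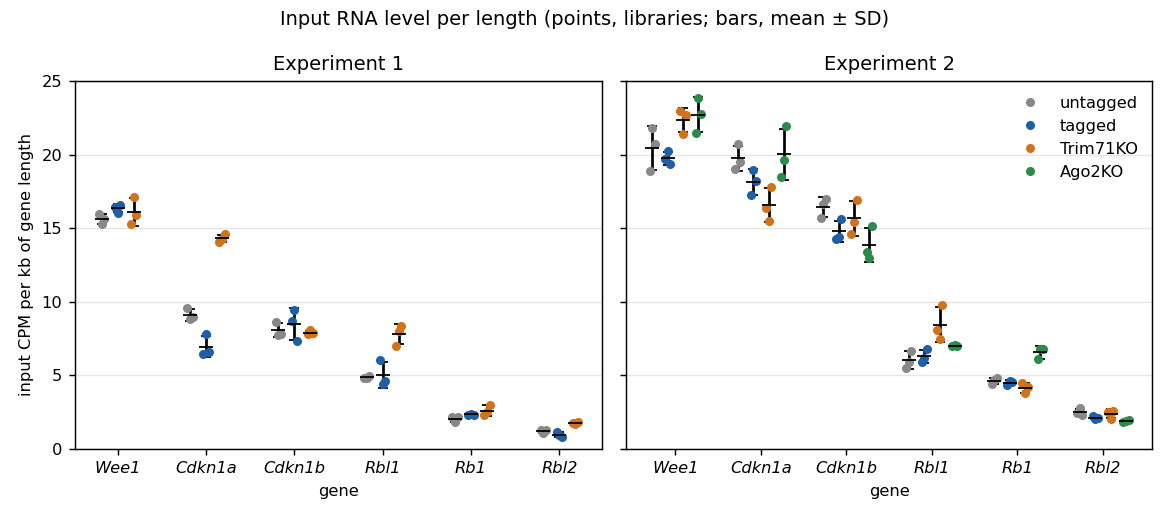
Input RNA level of the 6 genes in CPM per kilobase of gene length (y axis) by gene (x axis) in both experiments, with 1 point per library and bars for mean ± SD (n = 3). Wee1 has the highest and Rbl2 the lowest group means, Cdkn1a of experiment 1 stands at 6.94 in tagged and 14.3 in Trim71KO cells, and Rb1 of experiment 2 stands at 4.49 in tagged and 6.55 in Ago2KO cells.

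The first comparison concerns which mRNAs the beads recovered because of the tag on Tnrc6a. All 6 mRNAs were enriched with the tag in both experiments, and Cdkn1a and Rbl2 were among the most enriched of all genes. In untagged cells their IP levels lay near input, with fitted IP to input ratios of 0.80 to 1.32 in experiment 1 and 0.80 to 1.03 in experiment 2. In tagged cells of experiment 1 the ratio was 50.7 for Cdkn1a, 49.9 for Rbl2, 12.2 for Wee1, 3.85 for Rbl1, 3.71 for Cdkn1b and 2.77 for Rb1. A ratio above that of 99.9% of genes was reached by Cdkn1a and of 99.8% by Rbl2, against 86.0% for Rb1.

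Of the kinase inhibitors, Cdkn1a had IP levels of 1369, 1175 and 1208 CPM in tagged cells of experiment 1, against 28.7, 28.0 and 29.1 CPM in the untagged IP. These libraries lay far apart, while input was 22.9, 27.6 and 23.5 CPM in the tagged and 33.9, 31.2 and 31.8 CPM in the untagged cells. The tag-specific enrichment, which is the difference between tagged and untagged cells in log2 IP over input, was 5.84 (SE 0.14, edgeR adjusted p 3.33e-19), rank 32 from the top of 18772 genes. Cdkn1b, the relative of Cdkn1a, reached 141, 135 and 153 CPM in the tagged IP and 34.0, 30.5 and 32.0 CPM in the untagged IP. Its tag-specific enrichment was 2.08 (SE 0.14, edgeR adjusted p 1.07e-11), smaller than that of Cdkn1a on the same log2 scale.

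Among the pocket proteins, Rbl2 stood at 369, 339 and 365 CPM in the tagged IP of experiment 1 and at 10.9, 7.19 and 7.04 CPM in the untagged IP. The mRNA that was scarcest in input per length therefore passed Cdkn1b, Rbl1 and Rb1 in the tagged IP, at 47.3 ± 2.14 CPM per kb against 31.4 ± 1.91, 19.3 ± 1.44 and 6.48 ± 0.46. Its tag-specific enrichment was 5.79 on the log2 scale (SE 0.21, edgeR adjusted p 1.15e-16), rank 35. Rbl1 was at 109.7, 112 and 126 CPM in the tagged IP and 23.8, 29.4 and 27.3 CPM in the untagged IP, an enrichment of 2.06 (SE 0.17, edgeR adjusted p 3.96e-10). Rb1, the retinoblastoma gene itself, was the least enriched of the 6 genes, at 36.2, 41.8 and 38.8 CPM in the tagged IP and 8.58, 10.0 and 11.0 CPM in the untagged IP. This gave 1.78 on the log2 scale (SE 0.18, edgeR adjusted p 8.36e-09). The mitotic kinase gene Wee1 was at 772, 623 and 648 CPM in the tagged IP and 67.1, 75.1 and 69.5 CPM in the untagged IP, an enrichment of 3.20 (SE 0.16, edgeR adjusted p 2.65e-14).

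All 6 genes were called higher at an edgeR adjusted p under 0.05, where 28.1% of all genes were called higher in experiment 1. Their median was 2.64 on the log2 scale, and the median over all genes tested was -0.10. In experiment 2 again 6 of 6 were called higher, against 18.9% of genes, with a median of 1.91 against -0.03. Enrichments there were 4.65 for Cdkn1a (SE 0.21, edgeR adjusted p 5.37e-15, rank 19 of 19778), 4.38 for Rbl2 (SE 0.27, rank 29), 2.65 for Wee1 (SE 0.15), 1.17 for Rbl1 (SE 0.13), 1.14 for Cdkn1b (SE 0.11) and 0.92 for Rb1 (SE 0.14). Cdkn1a and Rbl2, and likewise Rbl1 and Cdkn1b, differed by no more than the larger of their SEs in either experiment, with Wee1 between the 2 pairs. For each of the 6 genes every tagged IP library was above every untagged IP library, in both experiments, a separation that was not counted over all genes.

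**Figure D2:**
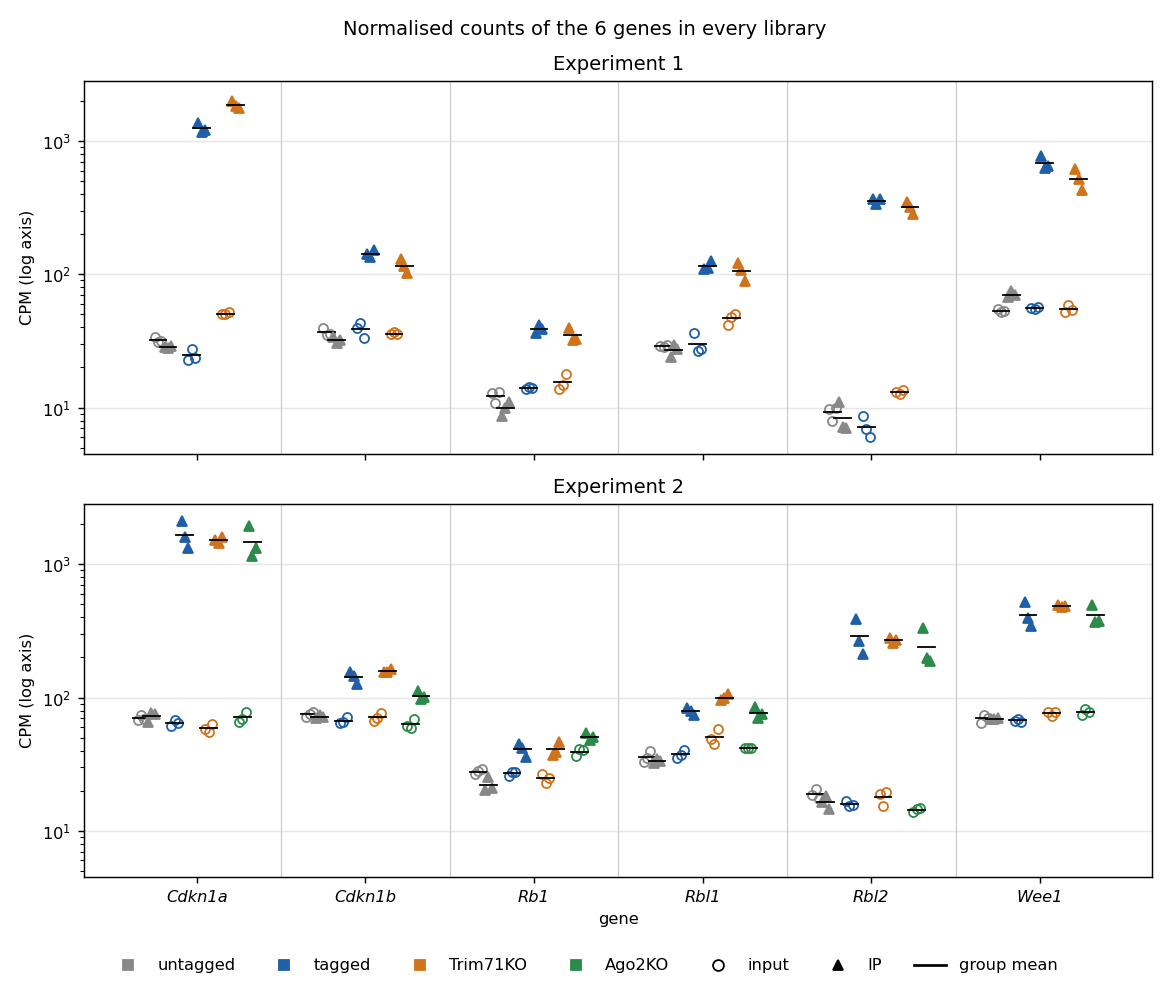
CPM on a log axis (y axis) of each gene (x axis) in every library of experiments 1 and 2, with open circles for input, triangles for IP, colours for genotype and lines for group means (n = 3). Tagged IP libraries of Cdkn1a lie at 1175 to 1369 CPM in experiment 1 and 1317 to 2104 CPM in experiment 2, against 28.0 to 29.1 and 65.3 to 76.2 CPM in the untagged IP.

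The spread of the IP libraries was not the same in all groups of experiment 2. Tagged IP libraries of Cdkn1a were at 2104, 1592 and 1317 CPM, and those of Rbl2 at 391, 265 and 211 CPM. Wee1 followed with 519, 396 and 344 CPM, so replicate 1 of the tagged IP was the highest for all 3 genes. Replicate 1 of the Ago2KO IP was also the highest for these genes, with 1936 CPM against 1161 and 1326 for Cdkn1a and 331 against 199 and 188 for Rbl2. Trim71KO IP libraries were closer together, at 1522, 1451 and 1607 CPM for Cdkn1a, 278, 257 and 271 for Rbl2 and 495, 476 and 483 for Wee1.

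Across the 14 group means, genes with the most similar log2 level to each of the 6 were sought by Pearson correlation among 11353 genes, as a description over points that mostly differ between IP and input of tagged cells. Cdkn1a was most like Rbl2 (r = 0.995), followed by Btg1 (r = 0.994) and Camta2 (r = 0.991). Among the genes closest to Rbl2 were Cdkn1a (r = 0.995) and Mylip (r = 0.994). Wee1 resembled Rab22a (r = 0.997), Rasl11b (r = 0.996) and Junb (r = 0.995). The closest gene to Rbl1 was Lnpep (r = 0.991), to Cdkn1b Ppm1a (r = 0.982) and to Rb1 Ppfibp2 (r = 0.970). Rb1 and Wee1 were the least alike of the 6 genes, with r = 0.739.

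The next comparison addresses whether the association with tagged Tnrc6a depends on Trim71. It sets the IP to input ratio of libraries labelled Trim71KO against that of tagged libraries, so it shares the tagged libraries with the comparison above. In experiment 1 the ratio was lower for Rbl2, Rbl1 and Cdkn1a, and the other 3 genes did not pass the test. For Rbl2 the fitted ratio was 49.9 in tagged and 24.3 in Trim71KO cells, for Rbl1 3.85 and 2.28, and for Cdkn1a 50.7 and 36.7. The count of 3 of 6 called lower stands against 3.47% of all genes called lower at an edgeR adjusted p under 0.05. All 6 log2 differences were below 0, with a median of -0.41 against -0.04 over all genes tested.

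Rbl2 had the largest difference of the 6, -1.04 on the log2 scale (SE 0.19, edgeR adjusted p 0.00123). Its IP levels in Trim71KO cells, 350.5, 321 and 285 CPM, overlapped those of tagged cells, whereas its input was 13.1, 12.7 and 13.5 CPM against 8.62, 6.94 and 6.01, without overlap. Rbl1 differed by -0.76 (SE 0.17, edgeR adjusted p 0.00796), with overlapping IP libraries (123, 107 and 89.6 CPM in Trim71KO cells) and separate input libraries (42.0, 48.1 and 50.0 CPM in Trim71KO against 36.1, 26.6 and 27.8 in tagged cells). For both pocket protein genes, then, what moved between the groups was the input level, and the IP level did not pass the test (IP differences of -0.17 for Rbl2, SE 0.12, and -0.12 for Rbl1, SE 0.12). Cdkn1a differed in both fractions. Its IP levels in Trim71KO cells were 1991, 1834 and 1770.2 CPM, all above the tagged IP, and its input was 50.0, 50.7 and 51.8 CPM, all above the tagged input. The input difference was larger than the IP difference, which left a ratio difference of -0.47 (SE 0.13, edgeR adjusted p 0.0474).

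The call on Cdkn1a was close to the threshold. With a replicate block within each fraction it became an edgeR adjusted p of 0.0574, with a block within each genotype 0.121, with RLE size factors 0.0971, with library size alone 0.171 and with the compared groups alone 0.161, which is 5 of 7 other settings, and Cdkn1a was called with the other two. It was also lost in 9 of 12 fits that left out 1 library (without tagged input replicate 1 or 3, any Trim71KO input replicate, tagged IP replicate 1 or 3, or Trim71KO IP replicate 2 or 3), with log2 differences from -0.49 to -0.32 for Cdkn1a in these. The Rbl1 call was lost in 6 of 12, without tagged input replicate 2 or 3, Trim71KO input replicate 2 or 3, or Trim71KO IP replicate 2 or 3, with Rbl1 differences of -0.67 to -0.55, while the Rbl2 call was kept in all of these fits.

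Wee1 (-0.36, SE 0.15, edgeR adjusted p 0.257), Rb1 (-0.31, SE 0.17, edgeR adjusted p 0.407) and Cdkn1b (-0.21, SE 0.14, edgeR adjusted p 0.527) did not pass the test of the ratio, although Wee1 did without Trim71KO IP replicate 1 (-0.45, edgeR adjusted p 0.0411). In the IP alone, where 35.4% of genes were called in either direction, 3 of 6 genes were. Cdkn1a was higher by 0.58 (SE 0.09, edgeR adjusted p 2.73e-05). Wee1 was lower, at -0.38 (SE 0.11, edgeR adjusted p 0.0074), with 622, 515 and 429 CPM, all below the tagged IP. Cdkn1b was lower too, with a difference of -0.31 (SE 0.10, edgeR adjusted p 0.0154) and levels of 129.9, 115 and 102 CPM, below all tagged IP libraries. The share of these calls is close to that of all genes. With library size alone as the scaling the differences of Wee1 and Cdkn1b were -0.23 and -0.15 and were not called, and both calls were also lost without Trim71KO IP replicate 3 (-0.18 and -0.14), without Trim71KO IP replicate 2 (-0.29 and -0.23) and, for Wee1, without tagged IP replicate 1 (-0.28) or, for Cdkn1b, without tagged IP replicate 3 (-0.26).

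In experiment 2 none of the 6 ratios passed the same test, where 1.49% of all genes did (295 genes, and 470 with a replicate block within each fraction, which called 0 of the 6 as well), and 0 of the 6 had an unadjusted edgeR p under 0.05 or a DESeq2 call. Over all genes, 3011 of 19778 had an unadjusted edgeR p under 0.05. Intervals of the log2 difference (95%) were -0.41 to 0.41 for Cdkn1a, -0.80 to 0.25 for Rbl2, -0.34 to 0.17 for Rbl1, -0.28 to 0.33 for Wee1, -0.15 to 0.40 for Rb1 and -0.15 to 0.30 for Cdkn1b. The fitted ratio of Cdkn1a was 25.9 in tagged and 25.9 in Trim71KO cells. The experiment 1 point values of all 6 genes lie below these intervals.

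Whether the experiments differed was tested in a joint fit over 18620 genes. None of the 6 ratios differed at an edgeR adjusted p under 0.05, and 0.0967% of all genes did. The difference, experiment 1 minus experiment 2, was -0.77 for Rbl2 (SE 0.35, edgeR adjusted p 0.307), -0.68 for Rbl1 (SE 0.21, edgeR adjusted p 0.145) and -0.47 for Cdkn1a (SE 0.26, edgeR adjusted p 0.391). All 6 were below 0, with a median of -0.46 against -0.09 over all genes. DESeq2 called 0 of the 6 and edgeR's unadjusted p was under 0.05 for 3 of them, Rb1, Rbl1 and Rbl2. Over all genes, that unadjusted p was under 0.05 for 2717 of 18620. Rbl1 was called without experiment 1 tagged input replicate 1 (-0.83, edgeR adjusted p 0.0323) or experiment 1 Trim71KO IP replicate 1 (-0.80, edgeR adjusted p 0.0217).

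**Figure D3:**
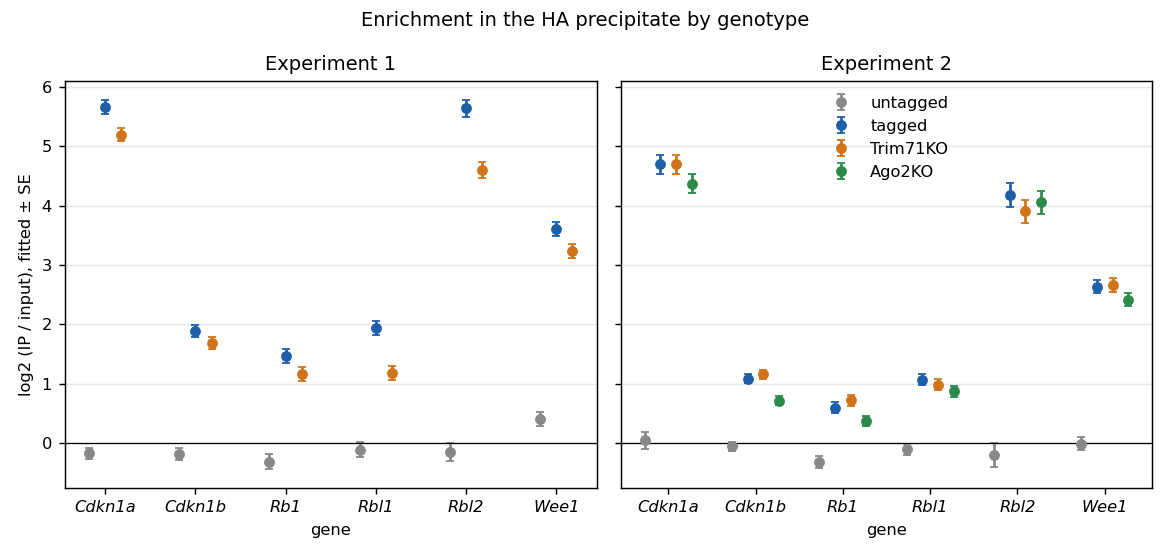
Fitted log2 ratio of IP to input (y axis) of the 6 genes (x axis) by genotype in both experiments, with bars of 1 SE. Untagged cells lie near 0, and Rbl2 of experiment 1 lies at 5.64 in tagged and 4.60 in Trim71KO cells.

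Enrichment over untagged cells remained in each knockout. No untagged knockout cells were sequenced, so tag and genotype change together in these comparisons and cannot be told apart. Set against untagged cells, all 6 genes were called higher in Trim71KO cells of experiment 1 (25.6% of genes called higher), in Trim71KO cells of experiment 2 (23% of genes) and in Ago2KO cells (15.8% of genes). Remaining enrichment of Cdkn1a over untagged cells was 5.37, 4.65 and 4.33 on the log2 scale in these 3 groups (SE 0.14, 0.21 and 0.21), and that of Rbl2 was 4.75, 4.10 and 4.26 (SE 0.20, 0.27 and 0.27). Wee1 kept 2.84, 2.68 and 2.43 (SE 0.16, 0.15 and 0.15). The smallest remaining value was that of Rb1 in Ago2KO cells, 0.69 (SE 0.13, edgeR adjusted p 0.000295). These comparisons share the untagged libraries with the first one.

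Input RNA shows how much of each mRNA the cells held. In experiment 1, Cdkn1a, Rbl2 and Rbl1 were higher in Trim71KO input and Cdkn1b, Rb1 and Wee1 did not pass the test, so 3 of 6 genes were called higher against 16.5% of all genes. Cdkn1a was 2.06-fold higher (log2 1.04, SE 0.10, edgeR adjusted p 3.45e-08), Rbl2 1.83-fold (0.87, SE 0.15, edgeR adjusted p 9.19e-05) and Rbl1 1.55-fold (0.63, SE 0.12, edgeR adjusted p 0.000298). For these 3 genes each Trim71KO library lay above each tagged library, a separation that was not counted over all genes. Wee1 showed no such shift, at 52.3, 58.5 and 54.4 CPM against 56.2, 54.9 and 56.6, with a log2 interval of -0.25 to 0.21. Cdkn1b (-0.10, SE 0.10) and Rb1 (0.15, SE 0.12) had overlapping libraries. Cdkn1a was also lower in tagged than in untagged input of experiment 1 (-0.39, SE 0.10, edgeR adjusted p 0.0127), the single gene of the 6 called there, where 4.87% of genes were called lower. That call was lost without tagged input replicate 1 or 3 or any untagged input replicate (-0.39 to -0.30 for Cdkn1a). Rbl2 had a difference of similar size between tagged and untagged input, which was not called (-0.37, SE 0.15, edgeR adjusted p 0.115). Trim71KO input of Cdkn1a was above the untagged libraries as well, at 50.0 to 51.8 against 31.2 to 33.9 CPM.

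In experiment 2, Rbl1 alone of the 6 genes was called higher in Trim71KO input, where 13.5% of all genes were. It stood at 48.5, 44.6 and 58.5 CPM against 35.5, 36.9 and 40.5 in tagged cells, with no overlap, a rise of 0.42 in log2 (SE 0.09, edgeR adjusted p 0.000658). Rbl1 was thus the gene of the 6 whose input was called higher in the libraries labelled Trim71KO of both experiments. Its IP level rose with it in experiment 2, to 95.2, 99.4 and 106 CPM from 83.2, 79.7 and 74.3, by 0.34 (SE 0.09, edgeR adjusted p 0.00294), the single call among the 6 where 17.1% of genes were called higher in the IP. In each fraction 1 of 6 is close to the share of all genes. The share of all genes called higher in input of both experiments was not counted. Wee1 in the IP (0.21, SE 0.10, edgeR adjusted p 0.128) passed with a replicate block within each fraction (0.22, edgeR adjusted p 0.036). Without tagged IP replicate 1, Wee1 (0.38, edgeR adjusted p 0.00218) and Cdkn1b (0.22, edgeR adjusted p 0.0331) were called higher as well.

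Cdkn1a input in experiment 2 was 58.2, 55.1 and 63.3 CPM in Trim71KO and 61.2, 67.3 and 64.6 CPM in tagged cells, which overlap. The log2 difference was -0.13 (SE 0.14, edgeR adjusted p 0.548), and that of Rbl2 was 0.17 (SE 0.20, edgeR adjusted p 0.567). In the joint fit, where 22.8% of genes were called in either direction, the Trim71KO effect on input was larger in experiment 1 for Cdkn1a, by 1.18 (SE 0.19, edgeR adjusted p 2.33e-05), and this was the single call of the 6. For Rbl2 the difference was 0.70 (SE 0.28, edgeR adjusted p 0.0611). Rbl2 was called with a replicate block within each fraction (0.71, edgeR adjusted p 0.0177), with DESeq2 (0.68, adjusted p 0.0422), with library size alone (0.81, edgeR adjusted p 0.0166) and without experiment 1 tagged input replicate 1 (0.85, edgeR adjusted p 0.0333). Tagged input of Cdkn1a itself was 22.9 to 27.6 CPM in experiment 1 and 61.2 to 67.3 CPM in experiment 2. No gene of the 6 was called between tagged and untagged input of experiment 2, where 1.39% of genes were and 0 of the 6 had an unadjusted edgeR p under 0.05 or a DESeq2 call. Over all genes, 2392 of 19778 had such an unadjusted edgeR p in this comparison.

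**Figure D4:**
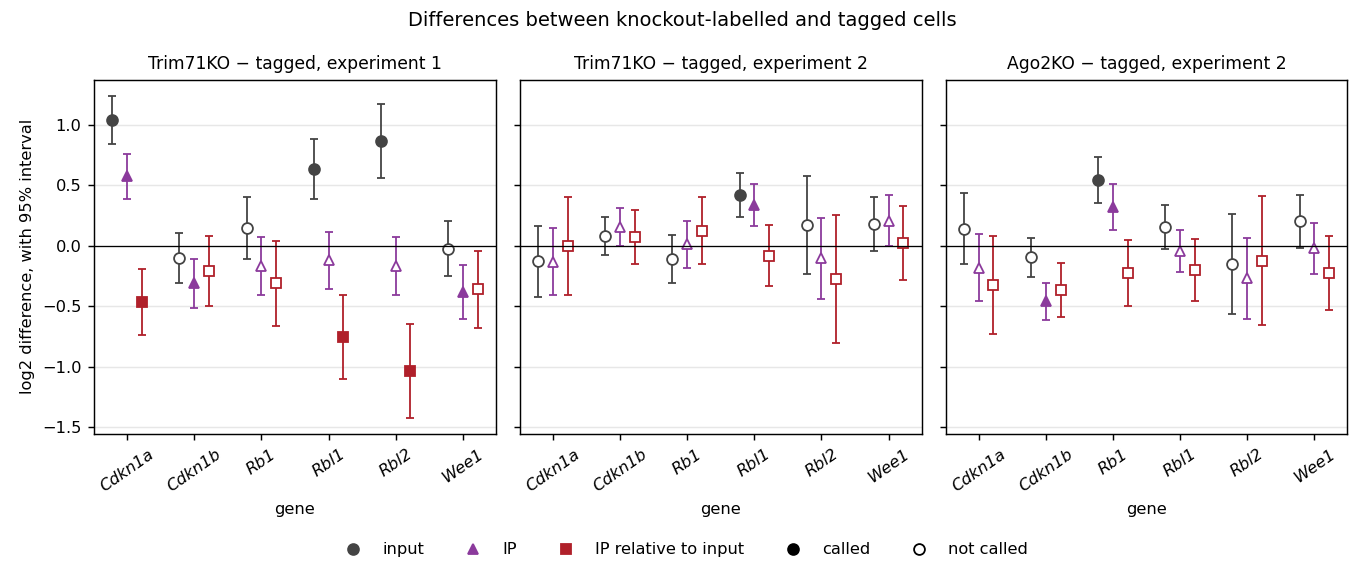
Log2 differences of knockout-labelled minus tagged cells (y axis, with 95% intervals) in input, in IP and in IP relative to input for the 6 genes (x axis); filled symbols are called at an edgeR adjusted p under 0.05. In experiment 1 input of Cdkn1a, Rbl1 and Rbl2 lies at 0.63 to 1.04 and their ratio at -1.04 to -0.47, and in the Ago2KO panel the 6 ratios lie at -0.37 to -0.12, none called.

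The last comparison concerns Ago2. Loss of Ago2 left no called change in the IP to input ratio of any of the 6 genes, while 4.16% of all genes were called. All 6 differences were below 0, with a median of -0.22 against 0.00 over all genes, and they share the tagged libraries. Cdkn1b came nearest to the threshold with -0.37 (SE 0.11, unadjusted p 0.00237 and edgeR adjusted p 0.0553). It was the single gene of the 6 with an unadjusted edgeR p under 0.05, where 2675 of 19778 genes had one. It was called by DESeq2 (adjusted p 0.0256) and by edgeR with a replicate block within each fraction (-0.36, adjusted p 0.0191). The log2 intervals of the others were -0.73 to 0.08 for Cdkn1a, -0.66 to 0.41 for Rbl2, -0.45 to 0.05 for Rbl1, -0.50 to 0.05 for Rb1 and -0.53 to 0.08 for Wee1. Cdkn1b was also called by edgeR without Ago2KO input replicate 2 (-0.41), tagged IP replicate 3 (-0.48) or Ago2KO IP replicate 1 (-0.42). Without Ago2KO IP replicate 1, the library with the highest Cdkn1a level of its group, Cdkn1a was called lower too (-0.57, edgeR adjusted p 0.0312).

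In the IP alone, Cdkn1b fell in Ago2KO cells to 112, 98.3 and 100.5 CPM from 156, 145 and 126 in tagged cells, with no overlap, a change of -0.46 in log2 (SE 0.08, edgeR adjusted p 8.65e-05). Its input did not pass the test (-0.09, SE 0.08). Rb1 did the opposite in the IP, at 53.8, 48.2 and 50.8 CPM against 44.6, 42.0 and 35.9, a difference of 0.32 (SE 0.09, edgeR adjusted p 0.0165). These were 2 of 6 genes, where 16.4% of genes were called in either direction. The Rb1 call in the IP was lost in a fit of the compared groups alone (Rb1 0.33, edgeR adjusted p 0.0616) and without tagged IP replicate 3 (0.19), Ago2KO IP replicate 1 (0.28) or Ago2KO IP replicate 3 (0.29). Without Ago2KO IP replicate 1, the IP levels of Cdkn1a (-0.43, edgeR adjusted p 0.012) and Rbl2 (-0.58, edgeR adjusted p 0.00486) were called lower, and that of Rbl2 also without tagged IP replicate 3 (-0.49, edgeR adjusted p 0.0356). Rb1 was higher in Ago2KO input too, and there it was the one gene of the 6 called, where 4.38% of genes were called higher. Input levels of Rb1 were 36.5, 40.9 and 40.7 CPM against 26.0, 27.6 and 27.5 in tagged cells, 1.46-fold higher (log2 0.55, SE 0.09, edgeR adjusted p 0.000407).

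Set directly against each other, the knockouts differed for Cdkn1b in the ratio (Trim71KO minus Ago2KO 0.44, SE 0.11, edgeR adjusted p 0.00722), 1 of 6 genes where 8.94% were called higher. Without Ago2KO IP replicate 1, Cdkn1a (0.57, edgeR adjusted p 0.017) and Wee1 (0.40, edgeR adjusted p 0.0482) were called as well. Cdkn1b IP levels were 156, 156 and 164 CPM in Trim71KO and 112, 98.3 and 100.5 CPM in Ago2KO cells. In input, where 28.4% of genes were called in either direction, 2 of 6 differed. Rb1 was lower in Trim71KO than in Ago2KO cells, at -0.66 in log2 (SE 0.09, edgeR adjusted p 7.14e-06), and Rbl1 was higher (0.27, SE 0.09, edgeR adjusted p 0.023). The Rbl1 call was lost without Trim71KO input replicate 3 (0.15) or Ago2KO input replicate 1 (0.28) or 3 (0.27). Cdkn1b (0.18, edgeR adjusted p 0.0882) was called higher with a replicate block within each fraction (0.18, edgeR adjusted p 0.0458) and without Ago2KO input replicate 3 (0.25). With the compared groups alone, Cdkn1b (0.19), Rbl2 (0.33) and Cdkn1a (-0.26) were called too.

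Partners of the 6 proteins were read from a list of 29 genes of other kinase inhibitors, Cdc25 phosphatases, E2F and DREAM complex members, of which 28 were tested. Tag-specific enrichment was called higher for 14 and lower for 7 in experiment 1 and for 12 and 4 in experiment 2, where 28.1% and 28.8% of all genes were called higher and lower in experiment 1 and 18.9% and 8.77% in experiment 2. E2f2 (5.54, SE 0.16), Lin52 (4.50, SE 0.20) and E2f3 (3.88, SE 0.18) led in experiment 1; E2f2 and E2f3 encode E2F activators that the pocket proteins bind, and Lin52 a subunit of the DREAM complex that contains Rbl1 or Rbl2. The Trim71-dependent ratio was called lower for 4 of 28 and higher for 0 in experiment 1, where 3.47% of all genes were lower, among them E2f3 (-1.46, SE 0.17), E2f2 (-1.06, SE 0.14) and the repressor gene E2f7 (-0.85, SE 0.16). E2f3 was also the 1 gene of the list called in experiment 2 (-1.01, SE 0.22, edgeR adjusted p 0.0178). In Ago2KO cells 2 of 28 were called, both lower, where 3.77% of all genes were. They were E2f5 (-1.01, SE 0.14), whose product pairs with Rbl2, and Skp2 (-0.56, SE 0.09), whose product directs p27 to degradation. Medians of the list were -0.10, 0.00 and 0.00 for the 3 ratios, against -0.04, 0.01 and 0.00 over all genes.

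Genes that E2F factors are known to drive, 23 of replication and mitosis, were all tested in input. In experiment 1, 12 were lower and 0 higher in Trim71KO input, among them the replication licensing gene Cdc6 (-0.51, SE 0.10) and Cdk1 (-0.50, SE 0.08), and the median was -0.24 against -0.01 over all genes, of which 17.4% were called lower and 16.5% higher. In experiment 2, 2 were higher and 2 lower, with a median of -0.04 against -0.01, where 13.5% of all genes were called higher and 13.7% lower. Of the genes that p53 is known to drive, as it does Cdkn1a, 18 were tested in experiment 1 and 19 in experiment 2. In Trim71KO input of experiment 1, 5 were higher, among them Gdf15 (0.96, SE 0.16), Btg2 (0.88, SE 0.08) and Bbc3 (0.69, SE 0.13), and 2 lower, Pmaip1 (-1.24, SE 0.10) and Bax (-0.26, SE 0.09). In experiment 2, 1 was higher, Perp (0.46, SE 0.12), and 4 lower, among them Pmaip1 (-0.58, SE 0.07) and Sesn1 (-0.49, SE 0.08). The shares of all genes just given are the background of these counts too, and nothing is read from them. The Trim71-dependent ratio of experiment 1 was called lower for 2 of these 18 genes and higher for 0, where 3.47% of all genes were lower. Btg2, an antiproliferative gene, was among them (-1.21, SE 0.11). In experiment 2 this ratio was called for 0 of 19.

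Rbl1 is itself known as an E2F-driven gene. Its RefSeq promoter, the 250 bases before the start (GRCm38.p6, chr2:157204535-157204784, minus strand), is shown because it was the 1 promoter of these genes in the table that holds a match, in capitals, to the E2F motif letters searched (TTTCCCGC, TTTCGCGC, TTTGCCGC or TTTGGCGC on either strand). The match is TTTCGCGC, beginning 18 bases before the start, and 611 of 32851 promoter windows of this length (1.86%) hold any of the 4. No match was found in the promoters of Cdkn1a (2 starts), Cdkn1b and Rbl2, and Rb1 and Wee1 have no entry in the table.
Rbl1 promoter: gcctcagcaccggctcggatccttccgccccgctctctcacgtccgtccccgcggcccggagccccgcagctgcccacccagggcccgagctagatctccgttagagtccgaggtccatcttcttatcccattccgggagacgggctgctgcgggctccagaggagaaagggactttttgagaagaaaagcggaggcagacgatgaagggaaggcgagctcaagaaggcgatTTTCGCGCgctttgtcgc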

How the data were processed

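For either experiment the authors deposited a table whose rows are genes and whose values are unnormalised read counts. The submitters' processing notes name bcl2fastq 2.20, STAR 2.7.3a and the builds GRCm38 and mm10, and the kit was stranded total RNA per the labels' protocols. The counting tool and its treatment of strand and overlapping genes are not given in the sources used here. Libraries were grouped by title and by experiment from the description.

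The test was that of edgeR 4.0.16, run in R 4.3.3 (TMM scaling, filterByExpr, quasi-likelihood F test), with all groups of an experiment in 1 fit and a separate joint fit for differences between experiments. Calls were made at 0.05 after Benjamini-Hochberg adjustment across the whole table. Dependence of enrichment on a genotype is the interaction of fraction and genotype. SE is the log2 change over the square root of F. CPM uses TMM-adjusted library sizes. Counting error was not estimated for single genes, and reads carry no stated molecular identifiers. Counting error need not be small beside replicate spread in every group. Rb1 tagged input of experiment 1, for example, had counts of 226 to 261 and 14.0 ± 0.16 CPM (SD, n = 3). On average over genes, replicate pairs within groups differed by more than sampling noise (chi-square per gene 2.87 to 64.1), so each library counted once. The fit was tested on simulated data.

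Alternatives were DESeq2 1.42.0, RLE factors, library size alone, no filter, replicate blocks, the compared groups alone and leaving out each library. The 6 genes and the lists were chosen with earlier results of these data known. From each list up to 3 genes each way were named, by size of change among those called with a mean log2 CPM of at least 2. Some genes that met a rule for naming are not reported here.

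Replicate numbers were checked as pairs. In experiment 2 the deviations of same-numbered tagged and Trim71KO libraries correlated at 0.258 to 0.395 in input and 0.25 to 0.377 in IP. These were over 0.1 in every pair, so a block for these numbers was taken as pairing. Input and IP of tagged cells in experiment 2 also passed 0.1 throughout (0.129 to 0.215). The block within fraction took in all genotypes, however, and some other pairs were not alike. Untagged with tagged input of experiment 2 was at -0.196 to -0.0301, and tagged with Trim71KO input of experiment 1 at -0.0803 to 0.106. The labels do not state what a number shares.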

Additional observations from a re-analysis of the deposited data

Results flagged for a closer look

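In the joint fit of input, 22.8% of all genes were called in either direction between the experiments, so a call there is common. The Trim71KO effect on Cdkn1a input RNA differed between the experiments by this interaction test, by 1.18 on the log2 scale (SE 0.19, edgeR adjusted p 2.33e-05, experiment 1 minus experiment 2). Input in experiment 1 was 50.0 to 51.8 CPM in 3 of 3 Trim71KO libraries against 22.9 to 27.6 CPM in tagged libraries, and in experiment 2 it was 55.1 to 63.3 against 61.2 to 67.3 CPM. The difference was kept under all alternatives run, at 1.09 to 1.29 for Cdkn1a. Primitive endoderm markers were lower in Trim71KO input of both experiments, and their part in this difference was not tested.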

How the results depend on the processing

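Of the 6 genes, all were called in tag-specific enrichment, and in what remained of it in each knockout, under every alternative run and without any single library. Input Trim71KO against tagged in experiment 1 kept 3 calls throughout. For the Trim71-dependent ratio of experiment 1, 2 in place of 3 genes were called with RLE factors, library size alone, either replicate block or the compared groups alone, which lost Cdkn1a. Other counts among the 6 moved by over 1.5 times as follows. With DESeq2, library size alone or a replicate block within fraction, the joint test of input called 2 in place of 1, adding Rbl2. Library size alone and the compared groups alone left 1 of 3 calls in the IP of Trim71KO cells in experiment 1. The compared groups alone gave 2 for input of Trim71KO and 2 for input of Ago2KO against tagged cells in experiment 2, 5 in place of 2 for Trim71KO against Ago2KO input, and 1 in place of 2 for the IP of Ago2KO cells. With a replicate block within fraction, the pairing raised the count for the IP of Trim71KO cells in experiment 2 to 2 (also 2 with tagged and Trim71KO groups alone, an alternative chosen after seeing the data), and that for the Ago2-dependent ratio to 1, as did DESeq2 (1). The block within fraction also added Cdkn1b to Trim71KO against Ago2KO input (3 in place of 2) and changed no other call among the 6. It raised all genes called in the Trim71-dependent ratio of experiment 2 from 295 to 470.

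Leaving out 1 library gave 1 to 4 called genes for the Trim71-dependent ratio of experiment 1, 0 to 1 for its difference between experiments, 1 to 2 for the joint test of input, 0 to 1 for tagged against untagged input of experiment 1, 1 to 3 for the IP of Trim71KO cells in experiment 1 and 1 to 3 in experiment 2, 0 to 2 for the Ago2-dependent ratio, 1 to 3 for the ratio of Trim71KO against Ago2KO, 1 to 2 for its input and 1 to 3 for the IP of Ago2KO cells. No called change among the 6 turned its direction; the direction of uncalled changes was not judged. The causes of these moves were not tested.

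Over all genes, the Trim71-dependent ratio of experiment 2 had 548 calls with DESeq2, 489 with library size alone, 522 with a block within genotype and 136 with the compared groups alone, and 98 to 562 without 1 library, against 339 to 1435 for 703 in experiment 1. The joint test of the ratio had 18 calls, 265 with DESeq2, 94 with the block and 6 to 1167 without 1 library. The compared groups alone moved calls from 275 to 497 for tagged against untagged input of experiment 2, from 1376 to 2481 for Ago2KO input and from 3236 to 1582 for Ago2KO IP. Tagged against untagged input of experiment 1 had 1983 calls, and 722 to 3053 without 1 library. Library size alone moved the median of all genes by over 0.1 for tag-specific enrichment of experiment 2 (-0.03 to -0.24), for that remaining in Trim71KO cells of experiment 2 (-0.02 to -0.17) and of experiment 1 (-0.15 to -0.01), for the Ago2-dependent and Trim71-dependent ratios (0.00 to 0.11 and, in experiment 1, -0.04 to 0.07), for the joint test of input (0.01 to 0.12) and for the IP of Trim71KO cells in experiment 1 (-0.07 to 0.09). The share of calls that were higher went from 68.4% to 36.5%, 59.5% to 43.5%, 46.7% to 56.2%, 9.2% to 26.1%, 7.3% to 24.6%, 46.4% to 68.8% and 40.5% to 63.3% in these. With 3 libraries per group, the SEs of 0.20 to 0.26 for Cdkn1a and Rbl2 in experiment 2 limit what its ratios can show.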
